A study of Xenopus laevis with 6 samples.

Results

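The genes described here encode the cytoskeletal motors of Xenopus laevis, that is kinesins, cytoplasmic dynein with its activator dynactin, and myosins. Their RNA was compared between primordial germ cells (PGCs), the precursors of eggs and sperm, and endoderm cells. A gene model was a member when its symbol in the deposited v9.1 table began with dync or dynl, with kif followed by a digit or c, or with klc, dctn, myo, myh or myl followed by a digit. That rule gave 71 of 10364 gene models, under 47 of 6808 symbols: 21 kinesin, 20 dynein or dynactin and 30 myosin gene models. No symbol of the kinesin light chains was among them. X. laevis is allotetraploid, and 24 motor symbols had 2 gene models and 23 had 1.

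Kinesins and dynein walk along microtubules by splitting ATP, most kinesins towards the plus end and dynein towards the minus end, while myosins pull on actin filaments. They carry vesicles, organelles and RNA, build the spindle, divide the cell and drive contraction of the cell cortex. In Xenopus, PGCs inherit germ plasm, an aggregate of mitochondria and RNA from the vegetal egg cortex. Microtubule motors are known to take part in gathering germ plasm, and actomyosin contraction is known to power blebbing of migrating PGCs.

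The study asked which transcripts are richer in PGCs than in neighbouring endoderm once the lineages have parted. The labels name no genotype, strain, transgene or agent for either group. PGCs and stage-matched endoderm cells came from embryos of stage 12-14, and 3 libraries were made of each cell type from 1 ng aliquots of RNA depleted of ribosomal RNA. The labels' protocols describe these libraries as aliquots, so p-values measure the spread between libraries, which may be technical. Total counts ran from 9.94 to 28.3 M in endoderm libraries and from 14.5 to 16.9 M in PGC libraries. Motor members held 1.05 to 1.09% of counts in endoderm and 0.965 to 0.975% in PGC libraries. The labels were checked against marker lists. Of 9 germ plasm gene models 6 were higher in PGCs and 1, of the germline helicase ddx4 (Xelaev18008273m), was lower (-0.92 ± 0.13), with a summed level of 1270 to 1350 CPM in endoderm libraries and 135000 to 137000 CPM in PGC libraries. Of 22 endoderm gene models 14 were lower in PGCs and 3, of gata4 and mixer, were higher, summing to 27100 to 27500 CPM in endoderm and 11100 to 11400 CPM in PGC libraries, so endoderm markers were present in both groups. Markers of other cell types were counted too. Of 12 ectoderm and neural gene models 6, of sox2, sox3, zic1 and krt12, were higher and 4 were lower, with sums of 1730 to 1870 CPM in endoderm and 1500 to 1550 CPM in PGC libraries. Of 8 gene models of ciliated cells 3, of foxj1, rfx2 and ift88, were higher and 1, of dnai2, was lower, with sums of 377 to 445 CPM in endoderm and 343 to 416 CPM in PGC libraries. No marker was at 0 over a whole group in these lists, but some were near 0 in endoderm. Examples are sox2, with endoderm counts of 1, 0 and 0, and zic1 Xelaev18029829m, with 12, 0 and 0. The part of these markers in the motor results was not tested.

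Levels are counts per 1e+06 (CPM) of the library size scaled by TMM, a scaling for library composition, and are given as mean ± SD over n = 3 libraries. Fold changes are log2 of PGC over endoderm ± standard error. A gene model was called when edgeR's quasi-likelihood test gave a Benjamini-Hochberg adjusted p under 0.05 over all 10364 gene models. The standard error is approximate. It was derived as the size of the log2 fold change over the square root of that test's F statistic. CPM are not corrected for transcript length, so levels are compared between cell types and not between genes. Shares of a summed CPM are shares of counts, in which longer transcripts weigh more, and not shares of RNA molecules. In such bulk samples fewer cells of a type and less RNA per cell cannot be told apart.

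Of the 71 members, 14 were higher in PGCs, 15 were lower and 42 were not called. Of all gene models 12.6% were called higher and 16.8% lower (29.3% in either direction), against 19.7% and 21.1% of the members. Among 21 kinesin gene models 9 were higher and 3 lower, with a median log2 fold change of 1.27. Among 20 gene models of dynein and dynactin 3 were higher and 2 lower, with a median of 0.38. Among 30 myosin gene models 2 were higher and 10 lower, with a median of -0.61. Over all gene models the median was 0.07. For 24 members every PGC library exceeded every endoderm library, and for 18 the reverse held, where the whole set of gene models gave 24.5% and 23.7%. A change of at least 2-fold was called upwards for 12 members and downwards for 11, against 10.2% and 10.1% of all gene models.

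The level of a gene model moved with its change. All gene models were split into 10 deciles by mean CPM. In the decile with the highest CPM the median log2 fold change was -0.75 and 70.0% were called lower. In the decile with the lowest CPM the median was 0.61. Of 15 members in the top decile 11 were called lower and 2, kif13b and kifc1, higher, and 14 of the 15 members called lower were in the top 3 deciles. The part of level in these falls was not tested beyond the scaling alternatives given next. With library scaling that followed expression level (lowess offsets) 12 members were higher and 11 lower, and with total-count scaling 16 and 12. That scaling by total counts moved the median of all gene models to 0.39, and lowess offsets moved it to -0.05.

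**Figure D1:**
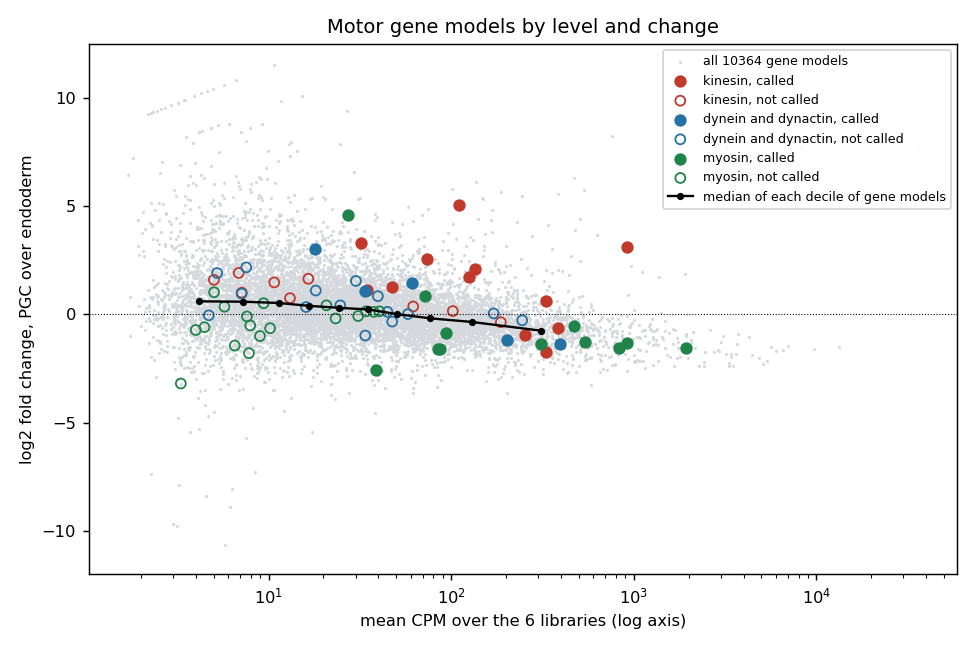
Each point is 1 gene model, with mean CPM over the 6 libraries on a log axis and log2 fold change of PGC over endoderm on the vertical axis. Grey points are all 10364 gene models and coloured points the 71 motor members, filled where called. The black line joins the medians of deciles of gene models by level and falls from 0.61 to -0.75, with kif13b far above it at the right and most called myosins below 0.

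The 3 called kinesin-3 gene models showed the largest rises among the kinesin members of the v9.1 table. Kinesin-3 motors are long-distance carriers of vesicles. kif13b (Xelaev18028249m) was at 187, 168 and 211 CPM in endoderm replicates 1, 2 and 3 and at 1741, 1661 and 1543 CPM in the PGC replicates. All PGC libraries lay far above all endoderm libraries. In Xenopus this gene is known to act in PGC migration. Its log2 fold change was 3.13 ± 0.11, with an edgeR adjusted p of 9.03e-10, and it was 3.45 with total-count scaling and 4.02 with lowess offsets. The other kif13b gene model (Xelaev18030206m) was at 9.45, 4.95 and 3.18 CPM in endoderm and 59.9, 63.0 and 51.1 CPM in PGCs, again with no overlap. It rose by 3.29 ± 0.45, by 3.87 without endoderm replicate 1, by 3.02 without endoderm replicate 3 and by 2.95 with lowess offsets.

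kif1a, which in mammals carries synaptic vesicle precursors along axons, gave the largest rise of any member. Its gene model Xelaev18029893m was at 2.76, 6.34 and 11.2 CPM in endoderm and at 185, 213 and 246 CPM in PGCs. The groups stood apart by more than an order of magnitude, and the log2 fold change was 5.05 ± 0.42 (edgeR adjusted p = 1.83e-06). The other kif1a gene model (Xelaev18027832m) had counts of 35, 0 and 114 in endoderm and 259, 232 and 11 in PGCs. Those groups overlapped, and its fitted value was 1.01 ± 1.61, with the other sign (-0.92) under lowess offsets. The remaining kinesin-3 members, kif16b, an endosome motor, and kif1c were not called, at 0.37 ± 0.28 and -0.36 ± 0.17.

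Summed over all 21 kinesin gene models the level was 2345 ± 78.2 CPM in endoderm and 4035 ± 96.2 CPM in PGCs. kif13b took 8.29 ± 0.629% of the kinesin sum in endoderm and 42.3 ± 1.79% in PGCs. Without kif13b the sums were 2150 ± 59.2 and 2330 ± 50.7 CPM. The net difference between the sums was therefore mostly in the counts of kif13b, while changes of other kinesins offset each other. Among those, kif1a Xelaev18029893m rose from 6.78 to 215 CPM and kif2c Xelaev18023091m from 50.7 to 220 CPM. kif5b fell from 511 to 155 CPM and from 334 to 172 CPM in its gene models, and kif21a from 465 to 302 CPM.

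Kinesins known from the mitotic spindle were counted in 6 gene models of kif11, kif18a, kif2c and kifc1. Of these 5 were higher, 0 lower and 1, of kif2c, not called, where 12.6% of all gene models were higher and 16.8% lower. kif11 encodes Eg5, the motor that pushes spindle poles apart. Its gene model Xelaev18034598m was at 23.0, 23.1 and 17.5 CPM in endoderm and 120, 133 and 126 CPM in PGCs, a rise of 2.57 ± 0.23. Xelaev18036889m was at 66.6, 76.6 and 31.2 CPM in endoderm and 217, 192 and 171 CPM in PGCs, a rise of 1.73 ± 0.28. Neither kif11 gene model overlapped between the groups.

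kif2c encodes MCAK, a motor that takes microtubules apart at their ends and was studied in Xenopus egg extracts as XKCM1. Xelaev18023091m was at 62.0, 34.2 and 55.8 CPM in endoderm and 212, 242 and 206 CPM in PGCs, a rise of 2.12 ± 0.22 with no overlap. The second kif2c gene model overlapped between the groups and stood at 0.16 ± 0.26. kifc1, a minus-end-directed kinesin that focuses spindle poles, was at 298, 220 and 257 CPM in endoderm and 418, 350 and 443 CPM in PGCs. Its rise was small, 0.64 ± 0.15 (edgeR adjusted p = 0.00545), in a decile of gene models with a median of -0.75, and it was 0.96 with total-count scaling and 1.34 with lowess offsets.

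kif18a, a kinesin-8 that damps chromosome movement at metaphase, rose by 1.14 ± 0.37, and kif7, a kinesin-4 that acts in Hedgehog signalling at the cilium, by 1.27 ± 0.44. The kif18a call was lost without endoderm replicate 1 or 3 (1.31 and 0.96) or PGC replicate 2 or 3 (0.89 and 1.24), and with lowess offsets (0.97). The kif7 call held without endoderm replicate 3 but was lost without endoderm replicate 1 or 2 (1.37 and 0.93), without PGC replicate 1, 2 or 3 (1.24, 1.49 and 1.05) and with lowess offsets (1.19). kif27, a paralog of kif7, stood at 1.65 ± 0.74 with no overlap of the groups and was called, at 2.35, when endoderm replicate 2 was removed and with no other single library removed.

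**Figure D2:**
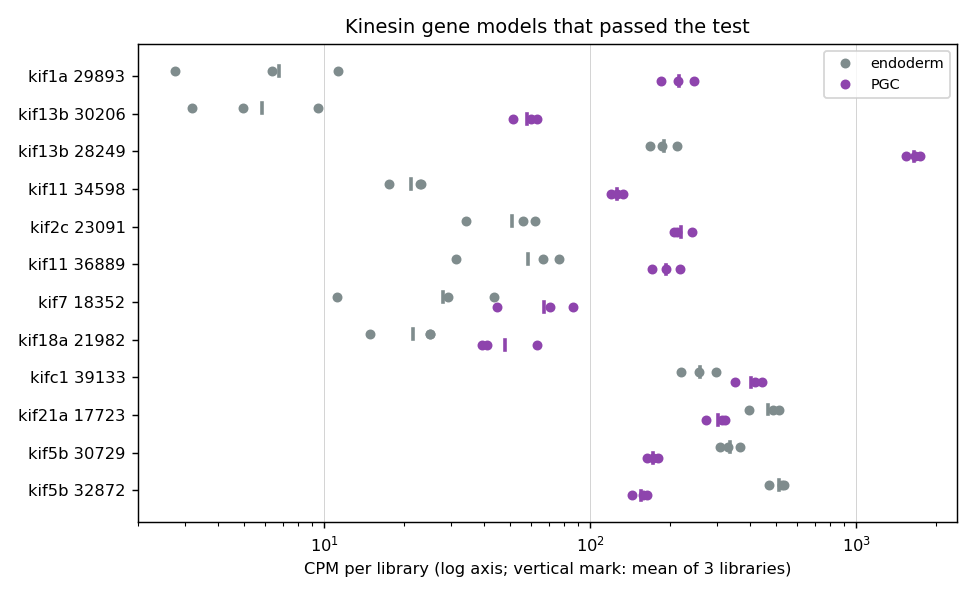
Points are CPM of single libraries on a log axis, grey for endoderm and purple for PGC, with a vertical mark at the mean of 3 libraries. Rows are the 12 called kinesin gene models, named by symbol and the last digits of the gene model, ordered by log2 fold change. The top 9 rows have PGC libraries to the right, and the rows of kif21a and kif5b have them to the left.

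The ubiquitous cargo kinesin went the other way. kif5b encodes the heavy chain of conventional kinesin (kinesin-1). Xelaev18032872m was at 534, 527 and 472 CPM in endoderm and 164, 157 and 143 CPM in PGCs, so that all PGC libraries were lower, and it fell by 1.72 ± 0.12 (edgeR adjusted p = 5.55e-07; -1.07 with lowess offsets). Xelaev18030729m was at 329, 307 and 367 CPM in endoderm and 181, 163.5 and 173 CPM in PGCs, a fall of 0.96 ± 0.13 that was -0.64 with total-count scaling and was no longer called with lowess offsets (-0.36). Its decile of gene models had a median of -0.75.

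The paralogs kif5a and kif5c, which are the neuronal forms in mammals, were sparse. kif5a stood at 0.76 ± 0.60 and the kif5c gene models at 1.92 ± 1.43 and 1.48 ± 0.73, all uncalled. Every PGC library exceeded every endoderm library for each, as for 24.5% of all gene models. The deciles they lay in had medians of 0.53 (kif5a and the second kif5c gene model) and 0.59. The third kinesin that fell was kif21a, a kinesin-4 that limits microtubule growth, from 465 ± 61.8 to 302 ± 26.0 CPM (-0.62 ± 0.13). Its call was lost with total-count scaling (-0.30), and the sign turned with lowess offsets (0.13). kif6 was not called, at 1.60 ± 1.36. With total-count scaling 9 kinesin gene models were higher and 2 lower, and with lowess offsets 7 and 1.

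Cytoplasmic dynein is a complex of heavy, intermediate, light intermediate and light chains. The heavy chain dync1h1, which holds the motor, fell in both gene models. Xelaev18039698m was at 563, 558.5 and 570 CPM in endoderm and 223, 212 and 231.5 CPM in PGCs, a fall of 1.34 ± 0.11. Xelaev18041192m was at 295.5, 327 and 221.5 CPM in endoderm and 129, 134 and 113 CPM in PGCs, a fall of 1.16 ± 0.17. Each PGC library was below each endoderm library for both, and with lowess offsets the values were -0.61 and -0.67, still called. dync2h1, the heavy chain of the dynein of cilia, was sparse and stood at 1.91 ± 1.14.

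The light chain dynll2 rose in both gene models. It is a form of LC8, a small dimer that also binds many proteins outside dynein. Xelaev18012185m was at 4.94, 2.89 and 3.86 CPM in endoderm and 28.4, 28.3 and 39.8 CPM in PGCs, a rise of 3.04 ± 0.52. Xelaev18014993m was at 39.4, 38.5 and 19.1 CPM in endoderm and 76.4, 112.5 and 78.5 CPM in PGCs, a rise of 1.46 ± 0.32. Neither overlapped between groups. The sister form dynll1 was not called, at -0.27 ± 0.13 (Xelaev18007559m, with 0.047 under total-count scaling and 0.33 with lowess offsets) and 0.05 ± 0.16 (Xelaev18010464m). The latter gene model was called higher with lowess offsets, at 0.51.

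The light intermediate chains, which bind cargo adaptors, gave no call among 5 gene models. For dync1li1 the fitted values were -0.97 ± 0.43 (Xelaev18031091m) and 0.85 ± 0.36 (Xelaev18033151m). The latter passed without endoderm replicate 2 (1.13) and with total-count scaling (1.17). dync1li2 stood at 0.12 ± 0.35 and 2.18 ± 1.16, and dync2li1, a ciliary subunit, at 0.34 ± 0.60. The light chains dynlt1 and dynlt3 were uncalled as well, at -0.33 ± 0.30 and 0.96 ± 1.08.

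Dynactin couples dynein to cargo and makes it processive. Of 6 dynactin gene models 1 was called. dctn4, a subunit of the pointed end, rose by 1.08 ± 0.36 (Xelaev18020036m), from 28.8, 16.9 and 19.3 CPM in endoderm to 39.8, 55.2 and 42.3 CPM in PGCs. The groups did not overlap, but the call survived the removal of endoderm replicate 1 and of no other single library. It was lost without endoderm replicates 2 and 3 (0.95 and 1.02), without PGC replicates 1, 2 and 3 (1.17, 0.92 and 1.13), and with lowess offsets (0.90). dctn1 encodes p150Glued, which grips the microtubule. Its gene model Xelaev18004894m stood at 1.55 ± 0.58 with an edgeR adjusted p of 0.0637, and was called without endoderm replicate 3 (2.31) and with total-count scaling (1.87). The authors' deposited table, which gives likelihood ratio statistics, lists it with an FDR of 0.0334. The other gene models of dctn1 and dctn4 stood at 0.42 ± 0.39 and 1.11 ± 0.58, dctn5 at -0.04 ± 1.56 and dctn6 at 0.02 ± 0.27. With total-count scaling 5 gene models of dynein and dynactin were higher and 2 lower. Summed over the 20 gene models the level was 1643 ± 23.0 CPM in endoderm and 1282 ± 16.1 CPM in PGCs. In that sum the dync1h1 gene models averaged 564 and 281 CPM in endoderm and 222 and 126 CPM in PGCs. Together they fell by more CPM than the sum, so the other members summed to more in PGCs.

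Myosins fell more often than they rose. Class II myosins contract actin filaments, and myh9 is the heavy chain of nonmuscle myosin IIA. Xelaev18023533m was at 1288, 1288 and 1365 CPM in endoderm and 526, 569 and 498 CPM in PGCs, a fall of 1.31 ± 0.09 (edgeR adjusted p = 3.57e-07). Xelaev18025550m was at 499, 579 and 584 CPM in endoderm and 362, 370 and 417 CPM in PGCs, a fall of 0.53 ± 0.11. All PGC libraries were lower for both. The calls depended on scaling, since lowess offsets gave -0.26 (uncalled) for the first and 0.29 (the other sign, uncalled) for the second, whose call was also lost with total-count scaling (-0.21).

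The regulatory light chain of nonmuscle myosin, myl12b, fell in the gene model that held most of its counts. Xelaev18033621m was at 760, 773 and 768 CPM in endoderm and 314, 324 and 327 CPM in PGCs, a fall of 1.25 ± 0.10 that was -0.40 and still called with lowess offsets. The other myl12b gene model overlapped and stood at 0.15 ± 0.30. The related regulatory light chain myl9 was not called, at -0.63 ± 0.87 and -0.09 ± 1.07.

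Heavy chains known from muscle were counted as well. myh6 is the alpha cardiac form in mammals. Xelaev18010229m was at 128, 116 and 146 CPM in endoderm and 34.75, 53.6 and 41.6 CPM in PGCs, a fall of 1.58 ± 0.23. myh7B.L, of a form found in mammalian heart and slow muscle, was at 62.8, 63.6 and 72.2 CPM in endoderm and 7.85, 8.51 and 16.8 CPM in PGCs, a fall of 2.58 ± 0.38. Neither overlapped between the groups. The other gene models of myh6, myh7, myh7b and the skeletal myh1-2-2 and myh1-3-1 were not called, with fitted values of -1.79 to 0.52. myh1-2-2 had PGC counts of 0, 0 and 172, and was called without PGC replicate 3 (-10.39). In the list of muscle and somitic mesoderm markers 6 of 20 symbols were found, with 10 gene models summing to 135 to 176 CPM in endoderm and 165 to 226 CPM in PGC libraries. None of them was at 0 over a group, though pcdh8 Xelaev18015748m had endoderm counts of 1, 0 and 0. Of those, ckm, muscle creatine kinase, fell by 1.15 ± 0.36, 2 gene models of the paraxial gene pcdh8 rose, and myod1 and actc1 were not called. Their part in the falls of myh6 and myh7b was not tested.

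Among unconventional myosins, which carry cargo or tether membranes, 5 gene models fell and 2 rose of 16. myo9b is a class IX myosin, a single-headed motor. Xelaev18006590m was at 2648, 3130 and 2900 CPM in endoderm and 972, 996 and 950 CPM in PGCs, a fall of 1.57 ± 0.08. Xelaev18001195m was at 1217, 1302 and 1207 CPM in endoderm and 411, 469 and 395 CPM in PGCs, a fall of 1.55 ± 0.10. Both fell by nearly the same factor, and both kept their call at -0.27 and -0.55 with lowess offsets. Together myo9b and myh9 made up 75.1 ± 1.2% of the summed myosin CPM in endoderm and 68.5 ± 1.26% in PGCs. That sum was 7994 ± 312 CPM in endoderm and 3373 ± 70.1 CPM in PGCs. This sum and those of the other motors were computed with TMM scaling only. The myo9b and myh9 gene models lay in the top decile, with a median of -0.75. With lowess offsets those of myh9 stood at -0.26 and 0.29, uncalled. The part of scaling in the fall of the myosin sum was not tested.

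myo10, the motor of filopodia tips, fell in Xelaev18033374m from 469, 423 and 458 CPM to 179, 139 and 202 CPM, by 1.38 ± 0.15 (-0.73 with lowess offsets). myo1a, a membrane tether of the gut brush border in mammals, fell in Xelaev18013417m from 135, 137 and 112 CPM to 35.2, 49.8 and 40.6 CPM, by 1.61 ± 0.22. The PGC libraries were below all endoderm libraries for both. The other myo1a gene model (Xelaev18015909m) was not called, at 12.0 ± 5.83 CPM in endoderm and 5.99 ± 4.34 CPM in PGCs.

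myo16, a myosin studied mainly in mammalian brain, showed the largest rise outside the kinesins. It had 44, 1 and 44 counts in endoderm and 822, 809 and 1049 counts in PGCs. The log2 fold change was 4.61 ± 0.92 (edgeR adjusted p = 0.00226). It was 5.83 without endoderm replicate 3, 4.06 without endoderm replicate 2 and 4.08 with lowess offsets. The other gene models, of myo1f, myo3a, myo5b, myo5c, myo7b and myo19, the last a motor on mitochondria, were not called, with fitted values of -3.19 to 1.03. myo7b had 0, 32 and 0 counts in PGCs and 98, 182 and 35 in endoderm, and passed without PGC replicate 2 (-9.71) and with lowess offsets (-9.31).

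**Figure D3:**
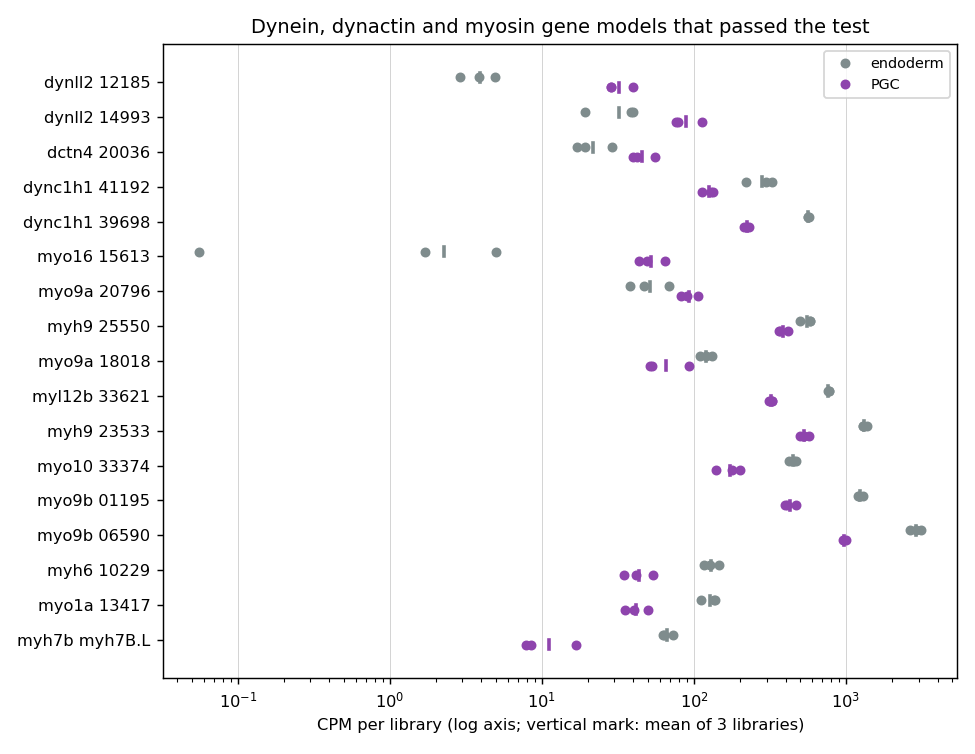
Points are CPM of single libraries on a log axis, grey for endoderm and purple for PGC, with a vertical mark at the mean of 3 libraries. Rows are the 5 dynein and dynactin and the 12 myosin gene models that were called, named by symbol and the last digits of the gene model. Both dynll2 rows and the myo16 row have PGC libraries to the right, and the rows of myo9b, myh9 and dync1h1 have them to the left.

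The 24 symbols with 2 gene models allowed a comparison within a gene, with the same libraries on both sides. Both gene models were called in the same direction for 7 symbols, higher for kif13b, kif11 and dynll2 and lower for kif5b, dync1h1, myh9 and myo9b. Of all 3512 symbols with 2 gene models 196 had both called higher and 353 both called lower. The PGC over endoderm ratio differed between the gene models of 6 symbols by edgeR's quasi-likelihood test with library as a block, adjusted over all 3512 such pairs, where 9.68% of all pairs passed. These were kif2c, kif5b, myh9, myl12b, myo10 and myo9a.

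myo9a, a relative of myo9b, was the 1 symbol whose gene models were called in opposite directions, as were those of 48 of all 3512 symbols with 2 gene models. Xelaev18018018m was at 110, 132 and 121 CPM in endoderm and 92.6, 52.6 and 51.6 CPM in PGCs (-0.88 ± 0.25). Xelaev18020796m was at 46.9, 37.9 and 68.8 CPM in endoderm and 81.8, 89.3 and 107 CPM in PGCs (0.86 ± 0.26). The log2 ratios differed by 1.83 ± 0.44 (edgeR adjusted p = 0.0328). That difference missed the threshold without endoderm replicate 1 or 2 (1.85 and 1.57) or PGC replicate 2 or 3 (1.71 and 1.57). Without the same libraries neither gene model was called. Xelaev18018018m was at -0.89, -0.78, -0.74 and -0.73 and Xelaev18020796m at 0.86, 0.72, 0.89 and 0.74 in these fits, and the fall was also lost with total-count scaling (-0.56) and lowess offsets (-0.65).

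The other differences were not between opposite calls. For kif5b and myh9 both gene models fell, by different amounts, and for kif2c, myl12b and myo10 only 1 gene model was called. Between the kif2c gene models the log2 ratio differed by 2.07 ± 0.42, which missed the threshold without PGC replicate 1 or 2 (2.05 and 1.74 in size). For myo10 the difference was 1.51 ± 0.24, with the second gene model (Xelaev18031470m) at 36.1 ± 3.02 CPM in endoderm and 39.2 ± 3.19 CPM in PGCs. For myl12b it was 1.39 ± 0.19, for myh9 0.78 ± 0.14 and for kif5b 0.77 ± 0.18. In myl12b, myo10 and myo9a the gene model with more counts over the 6 libraries was the one that fell. In kif5b and myh9 it was the one that fell further, and in kif2c the one that rose. The part of level in these differences was not tested beyond the lowess offsets given next. With lowess offsets the differences of myl12b, myo10 and myh9 were no longer called, at 0.45, 0.76 and 0.55 in size. The difference of kif5b passed only with all libraries or without endoderm replicate 3, and lay between 0.69 and 0.82 in size without endoderm replicates 1 and 2 and PGC replicates 1, 2 and 3. Without PGC replicate 2, 3 pairs passed in place of 6.

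**Figure D4:**
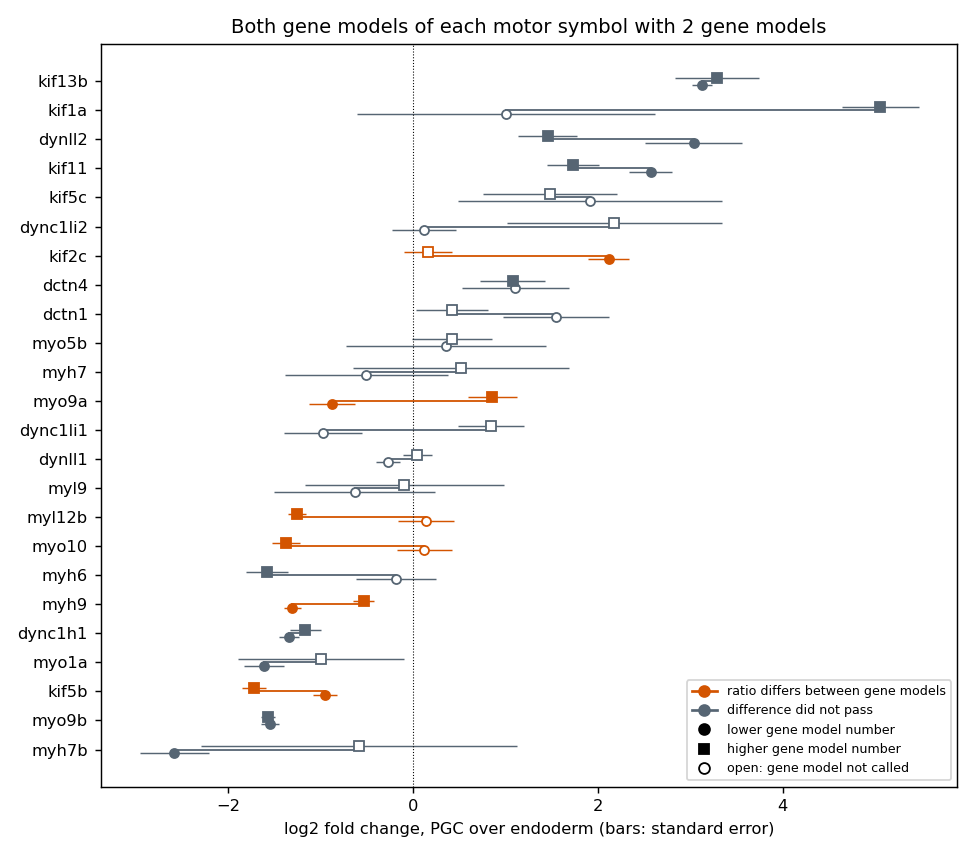
For each motor symbol with 2 gene models, 2 markers give the log2 fold change of PGC over endoderm with its standard error, filled where called, and a line joins them. Orange marks the 6 symbols whose gene models differed in ratio. The markers of myo9b nearly coincide, those of myo9a lie on opposite sides of 0, and kif13b has both beyond 3.

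The v7.1 table, an older gene set counted from the same libraries, gave motor genes whose symbols the rule did not find in v9.1. These were 30 gene models of 24 symbols, of which 9 were higher in PGCs, 3 were lower and 18 not called. Of 7902 gene models in v7.1, 12.8% were called higher and 16.1% lower. Among 12 such kinesin gene models 7 were higher and 0 lower. A wider list of 10 spindle and midzone kinesins, kif11, kif18a, kif2c and kifc1 among them, had 14 gene models in v7.1. Of those 8 were higher, 0 lower and 6 not called. The list's kif15, kif18b, kif20a, kif20b, kif22 and kif23 gene models are also among the 12 above. All come from the same libraries as v9.1, so these counts are not independent. Besides kif20b and a kif15 gene model, those not called were of kif11, kif18a, kif2c or kifc1. Of these symbols 5 of 6 gene models were higher in v9.1, a larger share than in v7.1.

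kif20a and kif23 act at the spindle midzone and in cytokinesis, the latter in the centralspindlin complex. kif20a rose from 265 ± 22.8 to 523 ± 23.6 CPM (0.98 ± 0.12; 1.59 with lowess offsets) and kif23 from 54.6 ± 9.26 to 149.8 ± 31.1 CPM (1.46 ± 0.23). kif2a, a depolymerizing relative of kif2c, rose by 1.15 ± 0.25, and kif22, a motor on chromosome arms, by 0.81 ± 0.22. The kif22 call was lost without PGC replicate 2 or 3 (0.75 and 0.74).

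kif15, known in Xenopus as Xklp2, rose in one gene model by 1.12 ± 0.34 and stood at 0.28 ± 0.21 in the other. The kif15 call was lost without endoderm replicate 1 or 3 (1.07 and 1.04) or PGC replicate 1 or 2 (1.07 and 0.94). kif18b, a kinesin-8, rose by 0.77 ± 0.26, a call that survived the removal of endoderm replicate 1 and of no other single library. It stood at 0.74, 0.59, 0.65, 0.80 and 0.86 without endoderm replicates 2 and 3 and PGC replicates 1, 2 and 3.

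kifc3, a minus-end-directed kinesin of cell junctions and vesicles, gave the largest change in that table among motors. Its counts were 153, 11 and 20 in endoderm and 1475, 1652 and 1171 in PGCs, all far higher, with a log2 fold change of 4.83 ± 0.62 (edgeR adjusted p = 5.12e-05). The subunits of kinesin-2, a motor of cilia that is also known for moving vegetal RNA in the Xenopus oocyte, were not called, with kif3a at -0.11 ± 0.41 and kif3b at 0.70 ± 0.34. kif19 and kif20b were not called either, at 2.26 ± 1.67 and -0.29 ± 0.13, and with lowess offsets they took the other sign, -1.36 and 0.33.

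Among myosins of v7.1, both myo18a gene models fell, by 1.62 ± 0.10 and 1.60 ± 0.15. With lowess offsets they stood at -0.66 and -1.11. myo1e.2 fell by 1.85 ± 0.25, whereas one gene model of the membrane tether myo1c rose by 0.71 ± 0.13 (1.26 with lowess offsets) and the other stood at -0.20 ± 0.16. The nonmuscle heavy chains myh10 and myh14, the light chain myl6, and myo1d, myo5a and myo6 were not called, with fitted values of -1.05 to 0.83. Among them myo6 (-1.05 ± 0.38) passed with lowess offsets, at -1.20. The dynactin subunit dctn2 (dynamitin) rose in one gene model by 1.95 ± 0.52 (1.69 and uncalled without PGC replicate 2). The other dctn2 gene model, dctn3 and the dynein chains dync1i2 and dynlrb1 were not called, at 2.27 ± 1.18, 1.18 ± 1.41, -0.35 ± 0.21 and -3.08 ± 1.26, and dynlrb1 passed with lowess offsets (-3.92).

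**Figure D5:**
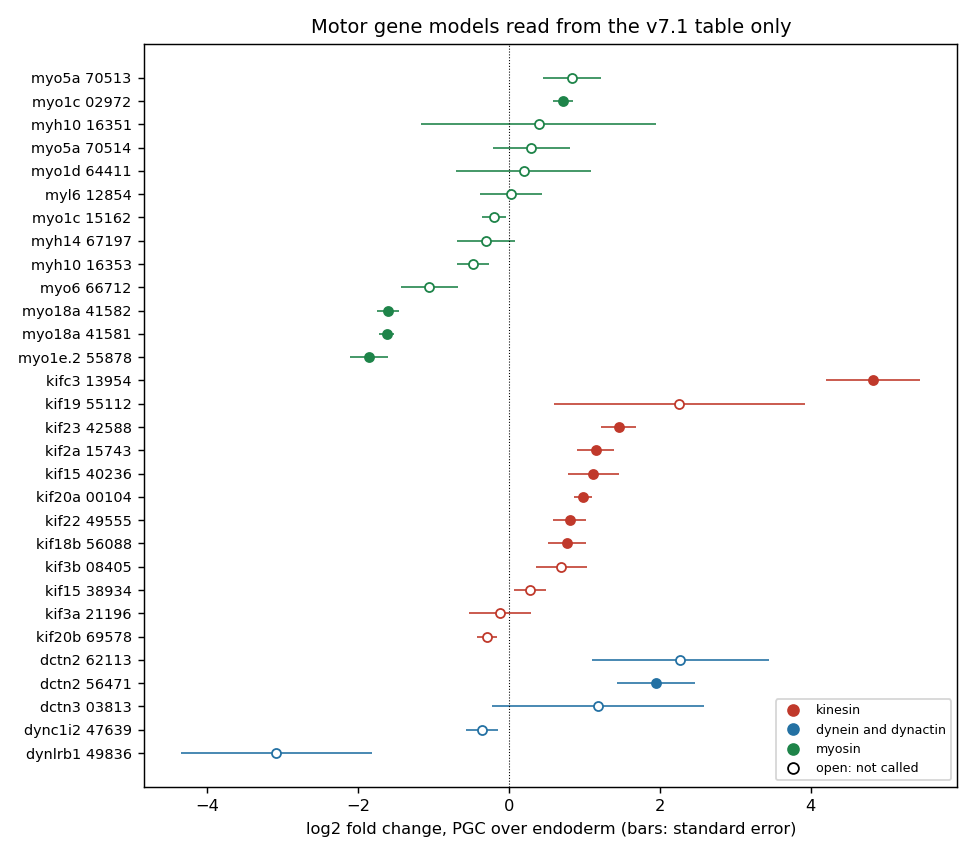
Points are log2 fold changes of PGC over endoderm with standard errors for the 30 motor gene models whose symbols were read from the v7.1 table only, coloured by superfamily and filled where called. The 7 filled kinesins are all above 0, with kifc3 at 4.83, and the filled myosins include myo18a and myo1e.2 below 0.

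Proteins that regulate motors or link them to cargo were read from a list of 74 symbols, 33 of which had 62 gene models in v9.1. Of these 16 were higher, 14 lower and 32 not called, with a median log2 fold change of 0.18. That is 25.8% higher and 22.6% lower, against 12.6% and 16.8% of all gene models. Among 22 kinesin partners 9 (40.9%) were higher and 1 (4.55%) lower. Centralspindlin's other subunit, racgap1, rose in 3 gene models by 1.97 ± 0.26, 1.51 ± 0.41 and 2.61 ± 0.67, and prc1, which bundles midzone microtubules, in 2 of 4 by 1.17 ± 0.17 and 0.87 ± 0.22. The germ plasm RNA grip2, at 8.21 ± 0.06 and 8.27 ± 0.28, accounts for 2 of the 9, and arl8b and plekhm2, which link lysosomes to kinesin-1, each rose in 1 of 2 gene models, by 1.18 ± 0.34 and 1.87 ± 0.57. rhot2, a mitochondrial anchor of motors, fell in 1 of 2 gene models by 1.95 ± 0.37.

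Among 21 dynein and dynactin partners 4 (19.0%) were higher and 5 (23.8%) lower, shares near those of all gene models. The 4 were spdl1 (Spindly, which brings dynein to kinetochores), by 4.16 ± 0.64 and 3.41 ± 0.97, and nde1, a dynein regulator in mitosis, by 2.01 ± 0.21 and 1.18 ± 0.30. The 5 that fell were capza1, both capza2 gene models, trak2 and 1 nudc gene model, by 0.59 to 1.18. Among 19 myosin regulators 3 (15.8%) were higher, 2 of ect2 and 1 of unc45a, and 8 (42.1%) lower. rock1, a kinase that activates myosin II, fell in 1 of 2 gene models by 0.71 ± 0.17, and cit, a kinase of cytokinesis, fell in 1 of 2 by 0.61 ± 0.17. With total-count scaling the partners split 20 higher and 8 lower, and with lowess offsets 18 and 7. Without PGC replicate 1, 10 partners were called higher.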

How the data were processed

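RNA of 3 PGC and 3 endoderm libraries was sequenced as 100-bp pairs, per the labels' protocols. The submitters' processing notes list HTSeq 0.6.0, edgeR 3.12.0, SAMtools 1.2, TopHat2 2.1.0 and Bowtie2 2.2.6. The sources used here do not give the strand setting, the treatment of reads shared by homeologs or the genome build, and counts of near-identical gene models and of overlapping genes are uncertain. The deposited v9.1 and v7.1 tables hold, per the file headers, a read count per gene model and library. The authors also deposited a normalized signal per library, log2 fold changes and log2 abundance, linear fold ratios, a likelihood ratio score and p-values. The smallest count total over the 6 libraries was 150.

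Tests used edgeR 4.0.16 under R 4.3.3 on the counts (TMM, glmQLFit, glmQLFTest, Benjamini-Hochberg 0.05), and filterByExpr removed 0 gene models. The script was tested on simulated data. Alternatives were DESeq2 1.42.0, other scalings and filters, a replicate block, 1 library left out, summed gene models and the v7.1 table. CPM were computed with TMM library sizes. No library pair of a group agreed within sampling noise.

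Members and lists were chosen with earlier results of these data known. Named gene models were up to 4 called members per class and direction with the largest change, the most counted of each class, a list of known motors, and pairs that passed the pair test. Other members named with values were chosen after their values were seen. Sequences are not used here.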

Additional observations from a re-analysis of the deposited data

How the results depend on the processing

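Of the 29 called motor gene models 24 were called in every fit without 1 library, 26 with total-count scaling, 21 with lowess offsets, 29 with DESeq2, and 20 under all of these and the replicate block. Over all gene models 1301 were higher and 1739 lower, against 1932 and 1117 with total-count scaling and 1298 and 1156 with lowess offsets, and 1044 were lower by at least 2-fold. Kinesins called lower numbered 3, and 1 with lowess offsets or at least 2-fold. Dynein and dynactin gene models called higher numbered 5 with total-count scaling, and those called lower 0 in v7.1 and 1 with gene models of a symbol summed. Myosins called higher numbered 1 in v7.1, summed or at least 2-fold, and 1 to 2 without 1 library. Partners called higher numbered 10 when summed and 10 to 18 without 1 library, and those called lower 8 with total-count scaling, 7 with lowess offsets and 7 at 2-fold. Differing pairs numbered 3 with lowess offsets and 3 to 6 without 1 library.

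Libraries of the same replicate number showed no shared shift (correlations of deviations 0.0114, -0.00209 and -0.0134). That check cannot tell whether they were collected together, and the labels state no pairing. With the replicate block 14 motors were higher and 15 lower, with dctn4 lost and dctn1 gained.

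The sign turned for kif21a (0.13) and myh9 Xelaev18025550m (0.29) with lowess offsets among called members. It also turned for uncalled members, among them dynll1 Xelaev18007559m (0.047 total-count, 0.33 lowess), dynll1 Xelaev18010464m (-0.013 without endoderm replicate 2 and -0.013 without PGC replicate 3), dync1li2 Xelaev18003596m (-0.13 to 0.40 without 1 library, with -0.062 and -0.13 without endoderm replicate 1 and PGC replicate 3), kif2c Xelaev18025208m (-0.21 without PGC replicate 3, up to 0.39 without PGC replicate 2), myl12b Xelaev18031880m (-0.018 without PGC replicate 2, up to 0.27 without PGC replicate 1), myl9 Xelaev18046588m (0.22 total-count, 0.36 and 0.43 without endoderm replicate 1 and PGC replicate 1, -1.09 without PGC replicate 2) and dctn6 (-0.016 with the block, and -0.007, -0.15 and -0.044 without endoderm replicate 1, PGC replicate 2 and PGC replicate 3). The causes were not tested. Depth limits members with few counts.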
